A study of Mus musculus with 8 samples.

Results

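The genes described here were 6 genes of Schwann cells and skin nerves: Mbp, Pmp22, Prx, S100b, Ngfr and Cdh19. They were taken by symbol from a table of 18770 genes in which each symbol matched 1 row, so that 6 of 18770 genes were followed. All 6 passed the filter on low values, a normalized count of at least 3 in at least 4 of the 8 libraries, which 15964 genes passed. A normalized count is a read count divided by 1 size factor for its library.

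The libraries came from the dorsal skin of male wildtype C57BL/6J mice (C57BL/6 in the sample records), 7 to 8 weeks old, whose hair had been removed by depilation. The AP group received Alpinetin, a plant flavonoid, at 3 mg/ml in 65% ethanol, applied to the skin once daily from 24 h after depilation. The vehicle control group (VC) received 65% ethanol alone on the same schedule. Poly(A) RNA was sequenced at day 4 after depilation from dermis with its hair follicles, once the keratinocytes between the follicles had been taken off. Each group held 4 libraries, numbered 1 to 4, and where 4 values are given for a group they follow that order. The study describes as many mice in each group as there are libraries, but the columns of the table could not be tied to individual mice. The p-values measure the spread among these libraries.

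Schwann cells are the glia of peripheral nerves. In skin they wrap sensory and autonomic axons, surround the nerve endings at hair follicles and sit at the tips of touch receptors. Myelinating Schwann cells wind their membrane into compact myelin around a single large axon, whereas the non-myelinating cells of Remak bundles hold many thin axons in shallow troughs. The factors Sox10 and Egr2 drive the myelin program, and Jun and Sox2 mark the immature or repair state that follows nerve injury. Melanocytes share a neural crest origin with Schwann cells and use several of the same genes, Sox10 and S100b among them. Neurons of skin nerves keep their cell bodies in ganglia outside the skin, so that skin RNA holds few neuronal transcripts.

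The libraries differed in depth and composition before any single gene was compared. Total reads per library were 6454563 to 7264151 in VC and 8507783 to 11190113 in AP. Reads on mitochondrially encoded genes made up 54.3%, 44.9%, 42.1% and 52.3% of the 4 VC libraries and 11.1%, 7.85%, 5.32% and 10.3% of the 4 AP libraries. The share was 48.4% ± 5.81 in VC and 8.66% ± 2.63 in AP (SD, n = 4 each; two-sided exact permutation p = 0.0286, the smallest that the 70 assignments of libraries can give). The reads on all other genes therefore ranged from 3080758 to 3762217 in VC and from 7561598 to 10594787 in AP, which gives VC values the larger counting error. VC.1 stood apart from the rest on the first principal component of all genes tested (42.4% of the variance), at -123.8 against -44.2 for VC.4 and -17.2 to 65.4 for the other 6. Each member's result without VC.1 is given with it.

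Of the 6 members, S100b and Mbp were lower in AP by the test across all genes, no member was called higher, and 4 were not called. The test was limma on log2(normalized count + 1) with Benjamini-Hochberg adjustment, and called means an adjusted p under 0.05. Over all 15964 genes tested, 4.0% (639) were called lower and 6.33% (1011) higher. In 2 of 6 members every AP library lay below every VC library, against 8.91% of all genes (1423), and in 1 of 6, Ngfr, every AP library lay above, against 10.3% (1641). The median log2 fold change of the 6 was -0.26, beside 0.06 for all genes, and it ranged from -0.46 without VC.1 to -0.15 without AP.3. The samples are whole tissue, so fewer cells of a type and less RNA per cell cannot be told apart in any of these differences.

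Mbp encodes myelin basic protein, which holds the inner faces of the myelin membrane together and is needed for compaction in the central nervous system. The gene (ENSMUSG00000041607) lies on the plus strand at chr18:82475146-82585637 in GRCm38. It was read at 1268, 2292, 1423 and 1834 normalized counts over the VC libraries and at 1181, 942, 639 and 849 in the AP libraries. The lowest VC library and the highest AP library were close, but the groups did not overlap. The mean was 1704 ± 459 in VC and 903 ± 225 in AP (SD, n = 4 each; exact permutation p = 0.0286). The log2 fold change of AP over VC was -0.91 (SE 0.23, limma adjusted p = 0.0320). Without VC.1 it was -1.04, with a limma adjusted p of 0.0379.

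The Mbp call was not secure at this number of libraries. It was lost without VC.2 (-0.76, limma adjusted p = 0.0589), VC.4 (-0.86, 0.0626), AP.2 (-0.94, 0.0682), AP.3 (-0.76, 0.101) or AP.4 (-0.89, 0.0820), and also without the intensity trend in limma (adjusted p = 0.0835). The AP mean was below the VC mean in each of these. The gene also gives rise to transcripts outside myelin, known as Golli transcripts, and values per gene cannot separate them from those of myelin.

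Pmp22 encodes peripheral myelin protein 22, a membrane protein of compact peripheral myelin that fibroblasts and epithelia also make. The gene (ENSMUSG00000018217) lies on the plus strand at chr11:63128982-63159547. Its levels were 880.4, 1200.0, 1075 and 1178 normalized counts over the VC libraries and 2124, 1608, 969 and 1228 in the AP libraries. AP.1, AP.2 and AP.4 were above all 4 VC libraries while AP.3 was within their range, so the groups overlapped. The mean was 1083 ± 146 in VC and 1482 ± 502 in AP (SD, n = 4 each; exact permutation p = 0.200). The log2 fold change was 0.40 (SE 0.23, limma adjusted p = 0.258), 0.30 without VC.1 and 0.21 without AP.1, the library with the highest level.

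Prx encodes periaxin, a protein of the Schwann cell membrane that ties myelin to the basal lamina through dystroglycan and Drp2. The gene (ENSMUSG00000053198) lies on the plus strand at chr7:27499324-27520214. It stood at 313, 427, 266 and 390.0 normalized counts over the VC libraries and at 408, 329, 187 and 214 in the AP libraries. AP.3 and AP.4 were below every VC library, and AP.1 was above 3 of them. With means of 349 ± 72.9 in VC and 285 ± 103 in AP (SD, n = 4 each), the difference was within the spread (exact permutation p = 0.343). The log2 fold change was -0.34 (SE 0.26, limma adjusted p = 0.401), -0.38 without VC.1 and -0.16 without AP.3, the library with the lowest level. An antisense gene, Gm15541, overlaps Prx and averaged 20.98 normalized counts in VC and 27.3 in AP. Whether reads were counted by strand was not stated, so a part of the Prx value may belong to it.

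S100b encodes a calcium-binding protein used as a general marker of Schwann cells, and melanocytes, adipocytes and dendritic cells of skin also express it. The gene (ENSMUSG00000033208) lies on the plus strand at chr10:76253853-76261159. It was found at 81.9, 94.6, 116 and 99.4 normalized counts over the VC libraries and at 33.4, 29.7, 16.4 and 42.9 in the AP libraries. The highest AP library was well below the lowest VC library, and AP.3 was the lowest of all. The mean was 98.0 ± 14.1 in VC and 30.6 ± 10.96 in AP (SD, n = 4 each; exact permutation p = 0.0286), which is 3.20 times higher in VC.

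The log2 fold change of S100b was -1.71 (SE 0.33, limma adjusted p = 0.0149), and -1.79 without VC.1 (limma adjusted p = 0.0251). Leaving out each library in turn gave limma adjusted p-values of 0.0151 to 0.0448. These values rest on 45 to 85 reads per VC library and 33 to 60 per AP library, although the AP libraries were the deeper ones. The end of S100b overlaps Dip2a on the opposite strand, which had 150 ± 37.4 normalized counts in VC and 215 ± 35.0 in AP (SD, n = 4 each). Dip2a was not called (log2 fold change 0.54, limma adjusted p = 0.125), and its mean and that of S100b differed in opposite directions. Without knowledge of strand, reads from the overlap cannot be assigned to either gene.

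Ngfr encodes p75, the low-affinity receptor of the neurotrophins, found on immature and non-myelinating Schwann cells, on sensory axons and on keratinocytes of the basal layer and outer root sheath. The gene (ENSMUSG00000000120) lies on the minus strand at chr11:95568818-95587735. Its values were 29.1, 42.9, 83.3 and 63.8 normalized counts over the VC libraries and 89.2, 105, 99.2 and 126 in the AP libraries. Every AP library was above every VC library, with VC.3 the nearest to them. The mean was 54.8 ± 23.8 in VC and 105 ± 15.5 in AP (SD, n = 4 each; exact permutation p = 0.0286).

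The test across all genes did not call Ngfr (log2 fold change 1.02, SE 0.33, limma adjusted p = 0.0683). It did so without VC.3 (1.25, limma adjusted p = 0.0397), and DESeq2 on the recovered reads also called it (0.93, DESeq2 adjusted p = 0.0319). Without VC.1, the library with the fewest Ngfr reads at 16, the log2 fold change was 0.76 (limma adjusted p = 0.118). Over all 8 single omissions the limma adjusted p ranged from 0.0397 to 0.171.

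Cdh19 encodes cadherin 19, an adhesion molecule of Schwann cell precursors and of the Schwann cell lineage. The gene (ENSMUSG00000047216) lies on the minus strand at chr1:110888326-110977584. It was read at 27.3, 65.0, 96.9 and 73.1 normalized counts over the VC libraries and at 63.8, 42.1, 48.3 and 60.1 in the AP libraries. The AP libraries lay inside the VC range, which ran from 15 reads in VC.1 to 71 in VC.3. Means of 65.6 ± 28.9 in VC and 53.6 ± 10.1 in AP (SD, n = 4 each) did not differ beyond the spread (exact permutation p = 0.686). The log2 fold change was -0.17 (SE 0.38, limma adjusted p = 0.793). It was -0.54 without VC.1 and 0.06 without VC.3, so that its sign rested on VC.3.

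**Figure D1:**
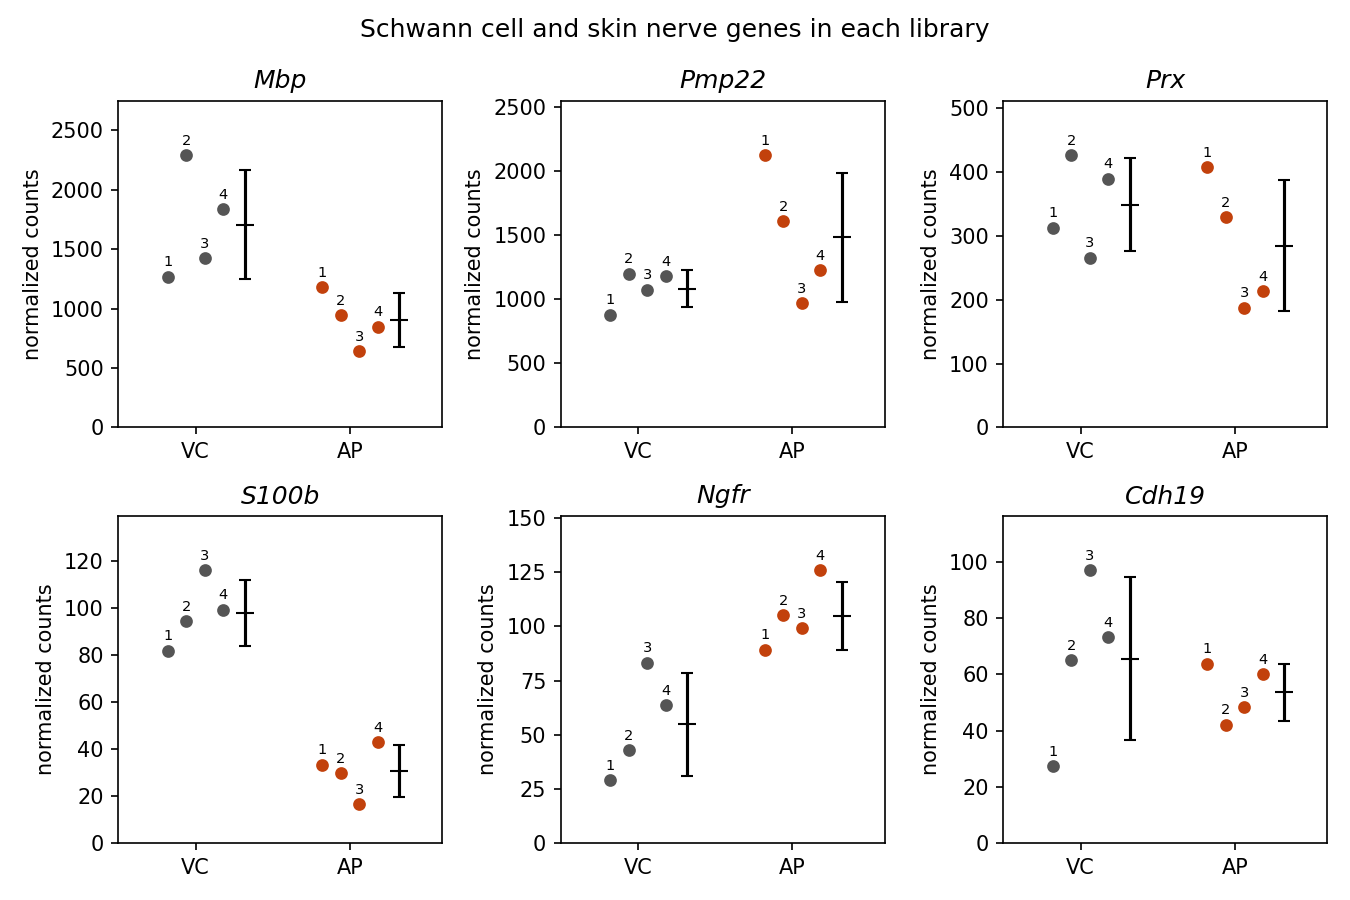
Normalized counts of the 6 genes in each library, VC in grey and AP in orange, with the number of the library above each point and the group mean ± SD (n = 4) at the right of each group. Mbp and S100b are lower in every AP library than in any VC library, Ngfr is higher, and the groups overlap for Pmp22, Prx and Cdh19.

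The scale of the libraries affected all members alike. Dividing by total reads, mitochondrial reads included, moved the median over all genes from 0.06 to 0.90. On that scale the log2 fold change was -0.04 for Mbp, 1.27 for Pmp22, 0.53 for Prx, -0.86 for S100b, 1.87 for Ngfr and 0.68 for Cdh19, so that Prx and Cdh19 changed sign and the median of the 6 became 0.60. Relative to the median of all genes the members differed little between the scales. Mbp was at -0.97 with the deposited scale and -0.94 with total reads, S100b at -1.77 and -1.76, and Ngfr at 0.96 and 0.97. The corresponding values were 0.34 and 0.37 for Pmp22, -0.40 and -0.37 for Prx, and -0.23 and -0.22 for Cdh19.

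A ratio of 2 genes within a library does not depend on its scale, and it shows where members differed from each other. Of the 15 pairs, 9 had ratios that did not overlap between the groups. Each had a two-sided exact permutation p of 0.0286, the smallest possible here, and 0.0476 after Benjamini-Hochberg adjustment over the 15 pairs. The pairs share genes and are not independent, and the share of such pairs among all genes was not computed. S100b and Mbp were lower in every AP library than in any VC library and Ngfr was higher, so their ratios to Ngfr were bound not to overlap. The ratio of S100b to Ngfr differed the most. Its log2 value was 1.46, 1.12, 0.47 and 0.63 in the VC libraries and -1.39, -1.79, -2.52 and -1.53 in the AP libraries. S100b was thus above Ngfr in each VC library and below it in each AP library, a difference of -2.73 between group means.

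Pmp22 and Mbp, both parts of compact peripheral myelin, also parted. The log2 ratio of Mbp to Pmp22 was 0.53, 0.93, 0.40 and 0.64 in the VC libraries and -0.85, -0.77, -0.60 and -0.53 in the AP libraries. Its mean was 0.63 ± 0.23 in VC and -0.69 ± 0.15 in AP (SD, n = 4 each; exact permutation p = 0.0286). Spread among libraries was smaller for this ratio than for either gene in AP, where AP.1 had the highest value of both and AP.3 the lowest.

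The other pairs without overlap were those of Mbp with Prx and Ngfr, Pmp22 with Prx and S100b, S100b with Prx and Cdh19, and Ngfr with Cdh19. Between Pmp22 and Prx the log2 ratio rose from 1.64 ± 0.25 in VC to 2.39 ± 0.10 in AP (SD, n = 4 each; exact permutation p = 0.0286). For Ngfr over Cdh19 it was -0.23 ± 0.28 in VC and 0.96 ± 0.35 in AP, and for S100b over Cdh19 0.69 ± 0.58 and -0.85 ± 0.48. Mbp over S100b, with an exact permutation p of 0.0571, was not past the threshold. Prx over Cdh19 was the pair with the smallest difference (-0.17, exact permutation p = 0.714).

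To compare levels between genes, normalized counts were divided by the length of the longest annotated transcript. In VC, Pmp22 had 594 ± 80.0 normalized counts per kb and Mbp 355 ± 95.7, far above S100b at 66.0 ± 9.53, Prx at 64.2 ± 13.4, Cdh19 at 16.8 ± 7.39 and Ngfr at 15.9 ± 6.90 (SD, n = 4 each). S100b and Prx did not differ beyond their spread, nor did Cdh19 and Ngfr. In AP the order was Pmp22 at 814 ± 276, Mbp at 188 ± 46.9, Prx at 52.4 ± 18.9, Ngfr at 30.4 ± 4.49, S100b at 20.6 ± 7.39 and Cdh19 at 13.7 ± 2.59. The ranges of neighbours from Prx to Cdh19 in that order overlapped.

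For each member, the 2 genes of most similar profile were taken among the 11257 genes with a mean of at least 50 normalized counts, by the root mean square difference of their centred log2 values over the 8 libraries. They were Nol3 (0.14) and Cyb5r3 (0.16) for Mbp, Slc29a1 (0.14) and Dnajb9 (0.17) for Pmp22, and Esr1 (0.13) and Plce1 (0.14) for Prx. S100b had no close match, with Plekha4 at 0.35 and Mrps6 at 0.36. Chml (0.17) and Ext1 (0.18) were nearest to Ngfr, and Pcgf2 (0.17) and Abt1 (0.23) to Cdh19. None of the 12 is a gene of the lists described below, and no profile nearest to a member was that of another member.

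Genes of the same cells were examined by list. Of 13 other peripheral myelin proteins, 12 were tested, of which 1 was called lower and 11 were not called, with a median log2 fold change of 0.61 (0.30 without VC.4) beside 0.06 for all genes. Cldn19, a claudin of the myelin sheath, and Pllp, plasmolipin, were higher in each AP library than in any VC library but were not called (log2 fold changes 1.15 and 0.93, limma adjusted p = 0.0781 and 0.129).

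None of the 4 enzymes of myelin galactolipids was called (median log2 fold change 0.75, from 0.50 without VC.1 to 1.21 without VC.2, 0 genes at a limma adjusted p under 0.05). Fa2h, which hydroxylates the fatty acids of these lipids and is also a gene of sebaceous glands and hair, was the most abundant at 631 to 8209 normalized counts in VC and 1816 to 3142 in AP.

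Among 12 transcription factors of the lineage, 11 were tested, 3 called higher and 2 lower, with a median log2 fold change of 0.00 (from -0.38 without VC.1 to 0.16 without AP.1). Pou3f1, a factor of promyelinating Schwann cells that keratinocytes also express, was at 99.4 to 297 normalized counts in VC and 451 to 1124 in AP (log2 fold change 1.89, SE 0.37, limma adjusted p = 0.0149; 0.0514 without AP.3). Jun, the most abundant of the list, was at 716 to 1004 in VC and 1501 to 2251 in AP (1.19, SE 0.17, limma adjusted p = 0.00628). Which cells of the tissue expressed Jun is not known. Egr2, the main activator of myelin genes, was at 100.05 to 188 in VC and 193 to 297 in AP (0.99, SE 0.23, limma adjusted p = 0.0267). That call was lost without VC.1, AP.2 or AP.3 (limma adjusted p = 0.0576, 0.0729 and 0.0931). Egr2 and Mbp differed in opposite directions in these libraries. In whole tissue the cells that expressed each are not known, and a link between the 2 genes was not tested.

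Sox2, a factor of immature Schwann cells, Merkel cells and the dermal papilla, was at 56.3 to 124 normalized counts in VC and 18.3 to 42.4 in AP (log2 fold change -1.78, SE 0.36, limma adjusted p = 0.0174; 0.0508 without AP.4). Nfatc4, a partner of Sox10 at myelin genes, was lower as well (-0.98, SE 0.26, limma adjusted p = 0.0365), with overlapping groups and a call lost without VC.1, VC.4, AP.2, AP.3 or AP.4 (limma adjusted p = 0.0741 to 0.105). Sox10 itself was at 136, 151, 160 and 101 in the VC libraries and 126, 103, 69.3 and 89.4 in the AP libraries, overlapping and not called (-0.51, SE 0.25, limma adjusted p = 0.195).

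Of 16 further genes of Schwann cells, 14 were tested, 2 called higher and 1 lower (median log2 fold change -0.09, from -0.15 without VC.1 to 0.02 without AP.3). Chl1, an adhesion molecule, rose from 69.4 to 123 normalized counts in VC to 265 to 583 in AP (2.06, SE 0.29, limma adjusted p = 0.00552). Erbb3, the neuregulin receptor of Schwann cells and also of keratinocytes, was the most abundant, at 133 to 306 in VC and 413 to 918 in AP (1.32, SE 0.31, limma adjusted p = 0.0253; 0.0831 without AP.3 and 0.0744 without AP.4). Gpm6b, a membrane glycoprotein of glia and neurons, was lower (-0.98, SE 0.19, limma adjusted p = 0.0151; 0.0558 without AP.3 and 0.0504 without AP.4). Gap43, a growth-associated protein of axons and Schwann cells, was lower in each AP library than in any VC library but was not called (-1.84, SE 0.54, limma adjusted p = 0.0507). Fabp7 and Gfap did not pass the filter on low values.

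Of 8 genes of the neuregulin axis, which controls myelin thickness, 3 were called higher and 0 lower (median 0.81). Besides Erbb3 they were Adgrg6, an adhesion receptor required for myelination (1.39, SE 0.24, limma adjusted p = 0.0107), and Adam17, a protease that cleaves neuregulin (0.69, SE 0.14, limma adjusted p = 0.0174; 0.0706 without AP.3 and 0.0588 without AP.4). Lgi4 was the most abundant, at 624 to 1088 normalized counts in VC and 645 to 939 in AP. Of 7 genes of laminins, dystroglycan and their partners, through which periaxin is anchored, 3 were called higher and 0 lower (median 0.62, and 0.31 without AP.2). Dag1, the dystroglycan gene and the most abundant of them, stood at 602 to 746 in VC and 1229.5 to 1712 in AP (0.997, SE 0.16, limma adjusted p = 0.00843). Utrn was at 0.80 (SE 0.16, limma adjusted p = 0.0158) and Itgb4 at 1.11 (SE 0.31, limma adjusted p = 0.0425). The Itgb4 call was lost without VC.1, VC.4, AP.2, AP.3 or AP.4 (limma adjusted p = 0.0663 to 0.118). Drp2, the direct partner of Prx, was not called (-0.50, SE 0.34, limma adjusted p = 0.346).

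Of 11 neurotrophins and their receptors other than Ngfr, 9 were tested, 1 was called higher and 0 lower, with a median log2 fold change of 0.84. The gene called was Sort1, which encodes sortilin, the co-receptor of p75, and it was also the most abundant of the list. It was at 223 to 322 normalized counts in VC and 371 to 853 in AP (0.95, SE 0.25, limma adjusted p = 0.0364). Each AP library was above each VC library, as for Ngfr, but the call was lost without any library other than AP.1 (limma adjusted p = 0.0548 to 0.113). Ntrk2, the receptor of brain-derived neurotrophic factor, was at 88.7 to 221 in VC and 149.97 to 369 in AP and was not called (0.66, SE 0.34, limma adjusted p = 0.212).

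**Figure D2:**
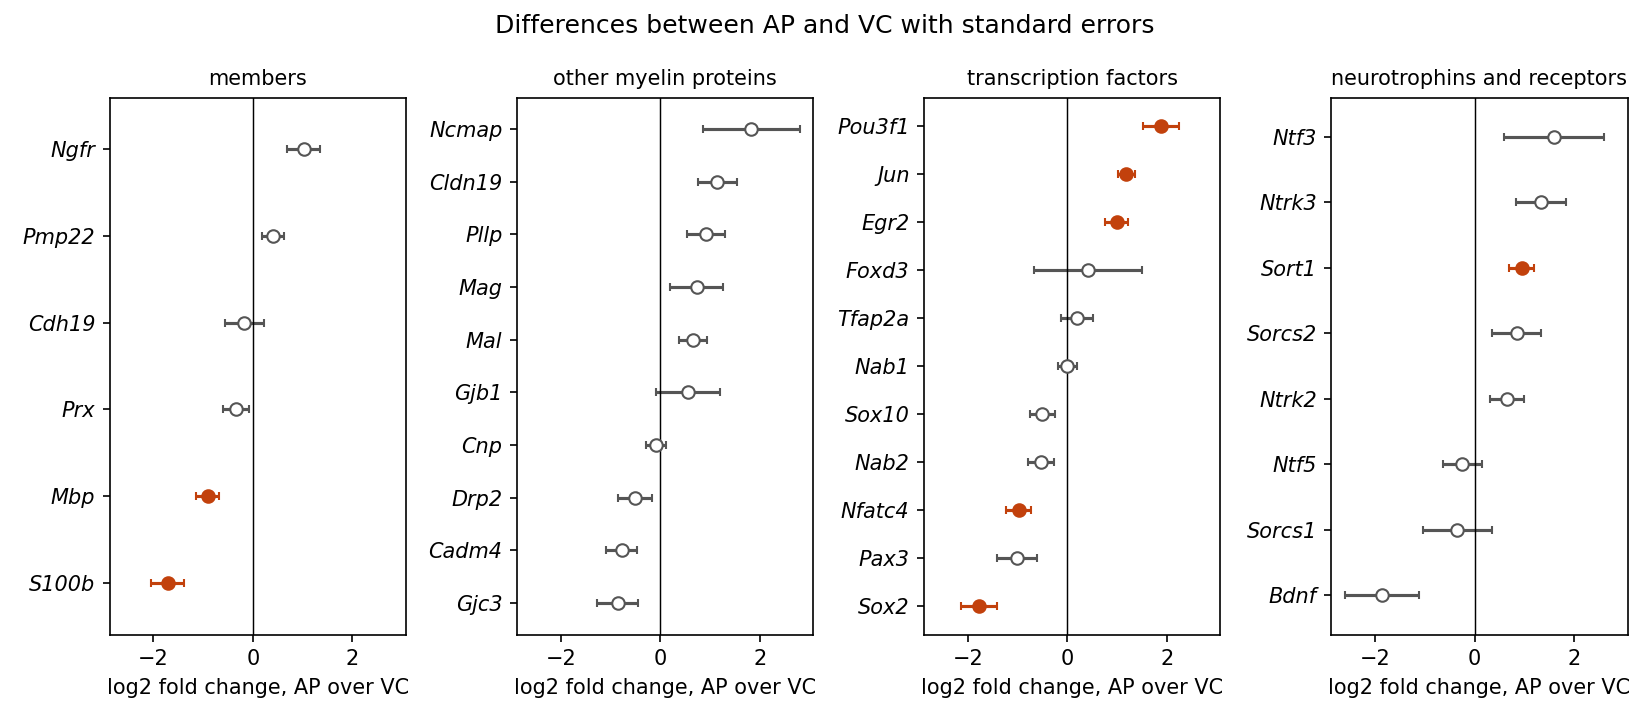
Log2 fold change of AP over VC with its standard error (limma, 4 libraries each) for the 6 members and genes of 3 lists, not all of which are drawn, with filled orange points for genes called at an adjusted p under 0.05 and open points for the others. S100b and Mbp are at -1.71 and -0.91 while Ngfr is at 1.02, and each list holds genes on both sides of 0.

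In the lists of neuronal and nodal genes few were called. Of 8 genes of the GDNF family, 1 was called higher (median 0.35, and 0.09 without VC.2), Ret, its signalling receptor (1.31, SE 0.34, limma adjusted p = 0.0354), a call lost without VC.2, VC.3, VC.4, AP.2 or AP.3 (limma adjusted p = 0.0606 to 0.105). Nrtn was the most abundant at 144 to 266 normalized counts in VC and 154 to 428 in AP. Of 17 genes of sensory neurons, 13 were listed, 8 tested and 1 called higher (median -0.15, from -0.35 without VC.2 to 0.06 without VC.1), Avil, an actin-binding protein of sensory neurons, at 0 to 8.19 in VC and 14.5 to 58.6 in AP (2.71, SE 0.76, limma adjusted p = 0.0450). That call was lost without VC.1, VC.2, VC.4, AP.2, AP.3 or AP.4 (limma adjusted p = 0.0507 to 0.137). Tubb3 was the most abundant of these at 63.8 to 129 in VC and 44.2 to 99.4 in AP. Of 11 genes of the node of Ranvier, 9 were tested and 0 were called by limma (median 0.27, and -0.16 without VC.4), with Cadm3 the most abundant at 272 to 302 in VC and 298 to 812 in AP. Of the 3 relatives of Pmp22, Emp1 was called higher (0.97, SE 0.13, limma adjusted p = 0.00465), at 802 to 984 in VC and 1630.4 to 1752 in AP. Emp2, the most abundant of the 3, was at 617 to 1399 in VC and 1229 to 2207 in AP and was not called (0.87, SE 0.27, limma adjusted p = 0.0612).

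Markers were set beside the label of the gene group, although the presence of reads cannot by itself establish that label. Sox10, a gene of the Schwann cell lineage and also of melanocytes, had reads in all 8 libraries, as did the members. Of 4 genes of oligodendrocytes, which skin lacks, 2 were listed. Mobp reached 12.7 normalized counts at most and was not called (limma adjusted p = 0.0557), and Hapln2 reached 4.43 and did not pass the filter. Of 7 Merkel cell markers, 6 were listed and 4 tested, and Sox2 was the only one called and the most abundant (median log2 fold change -0.86).

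Markers of other cell types differed between the groups alongside the members, and their part in the members' differences was not tested. Melanocytes also express S100b. Of 11 melanocyte markers, 0 were called higher and 4 lower (Mlana, Tyr, Pmel and Mitf), with a median log2 fold change of -0.83 (-1.33 without VC.4), or 0.04 after scaling to total reads, beside 0.06 and 0.90 for all genes. Their summed level was 5110, 3919, 4550 and 1716 normalized counts over the VC libraries and 1563, 1831, 2392 and 1384 in the AP libraries, so VC.4 lay in the AP range. S100b and the melanocyte marker Mlana in VC.4, at 99.4 and 201, were both above their values in every AP library. Dct was the most abundant at 503 to 1759 in VC and 495 to 812 in AP, and Gpr143 was at 0 in VC.4. Mlana was at 266, 223, 179 and 201 in the VC libraries and 50.8, 54.5, 66.8 and 38.6 in the AP libraries (-2.03, SE 0.24, limma adjusted p = 0.00237, called without each library in turn). The log2 ratio of S100b to Mlana was -1.14 ± 0.45 in VC and -0.81 ± 0.87 in AP (SD, n = 4 each) and overlapped between the groups. This ratio was chosen after the values were seen. The other calls of the list, Tyr (-1.37), Pmel (-1.35) and Mitf (-0.72), were lost without most libraries (limma adjusted p up to 0.106, 0.116 and 0.118). With total reads, a scale that moved the median of all genes to 0.90, Mitf changed sign (0.15) but stayed below that median.

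Keratinocytes express Ngfr, Erbb3 and Pou3f1. All 6 suprabasal keratinocyte markers were called higher (median log2 fold change 3.11), with Krt10 the most abundant, and Lor lost its call without any library other than AP.2 (limma adjusted p = 0.0531 to 0.112). Their summed level was 3218, 9348, 5852 and 3804 normalized counts over the VC libraries and 32685, 34623, 89664 and 139614 in the AP libraries. Of 5 basal keratinocyte markers, 1 was called higher, Col17a1 (1.73, limma adjusted p = 0.0298), lost without VC.1, VC.4, AP.3 or AP.4 (0.0544 to 0.0917), and the median was 0.94. The sum of the 5 was 28110.0, 81208, 50609 and 24103 in the VC libraries and 52678, 52009, 98262 and 141490.4 in the AP libraries, with Krt14 the most abundant. The log2 ratio of Ngfr to Krt14 was -8.33 ± 1.08 in VC and -8.34 ± 0.62 in AP (SD, n = 4 each), a ratio also chosen after the values were seen. It varied widely within VC, from -9.81 in VC.2 to -7.26 in VC.4. The log2 ratio of Ngfr to the fibroblast marker Col1a1 overlapped between the groups as well (-9.30 ± 1.01 in VC and -8.92 ± 0.89 in AP). Whether keratinocytes account for the Ngfr difference was not tested.

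Endothelial markers were called higher in 2 of 9 (Pecam1 and Cdh5), with a median of 1.38 and Vwf the most abundant. Their sum was 1584, 1667, 2578 and 2644 normalized counts over the VC libraries and 3957, 8550.4, 3121 and 3686 in the AP libraries. Cdh5 lost its call without VC.1, VC.2, AP.2, AP.3 or AP.4 (limma adjusted p = 0.0647 to 0.0887), and Pecam1 kept it in each case. Of 9 skeletal muscle markers, 1 was called lower (Tnnc2, limma adjusted p = 0.0497, lost without any library other than AP.1), with a median of -1.74 (from -2.56 without AP.1 to -1.28 without AP.3) and Acta1 the most abundant. Without AP.1 all 9 were called lower (limma adjusted p from 0.00171 for Tnnt3 to 0.0102 for Myh4). Their sum was 47279, 73825, 38051 and 36833 in the VC libraries and 71846, 9291, 5447 and 11869 in the AP libraries. AP.1 was thus in the VC range for muscle, and among AP libraries it had the highest Mbp, Pmp22, Prx and Cdh19.

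Of 7 dermal papilla markers, 1 was called lower (Alx4, -1.37, limma adjusted p = 0.0404; lost without VC.1, VC.2, VC.3, AP.2 or AP.4 at 0.0631 to 0.103), with a median of -0.92 (-0.48 without VC.3) and Sostdc1 the most abundant. They summed to 1129.6, 1193, 1652 and 649 normalized counts over the VC libraries and 714, 627, 1153 and 742 in the AP libraries. Of 6 leukocyte markers, Cd207 of Langerhans cells was called higher (1.72, limma adjusted p = 0.0224; 0.0684 without AP.3 and 0.0597 without AP.4), with a median of -0.23 (from -0.42 without VC.3 to 0.08 without VC.4), Cd74 the most abundant and sums of 4027 to 14473 in VC and 5203 to 8434 in AP. None of 10 adipocyte markers (median 0.36, from 0.16 without AP.2 to 0.69 without VC.1, Cfd the most abundant) and none of 7 fibroblast markers (median 0.41, from 0.23 without AP.1 to 0.75 without VC.4, Col1a1 the most abundant) was called by limma. The summed adipocyte level was 10939.9 to 36405 in VC and 14225 to 36592 in AP, and that of fibroblasts 81326 to 222688 and 97846 to 254001.

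**Figure D3:**
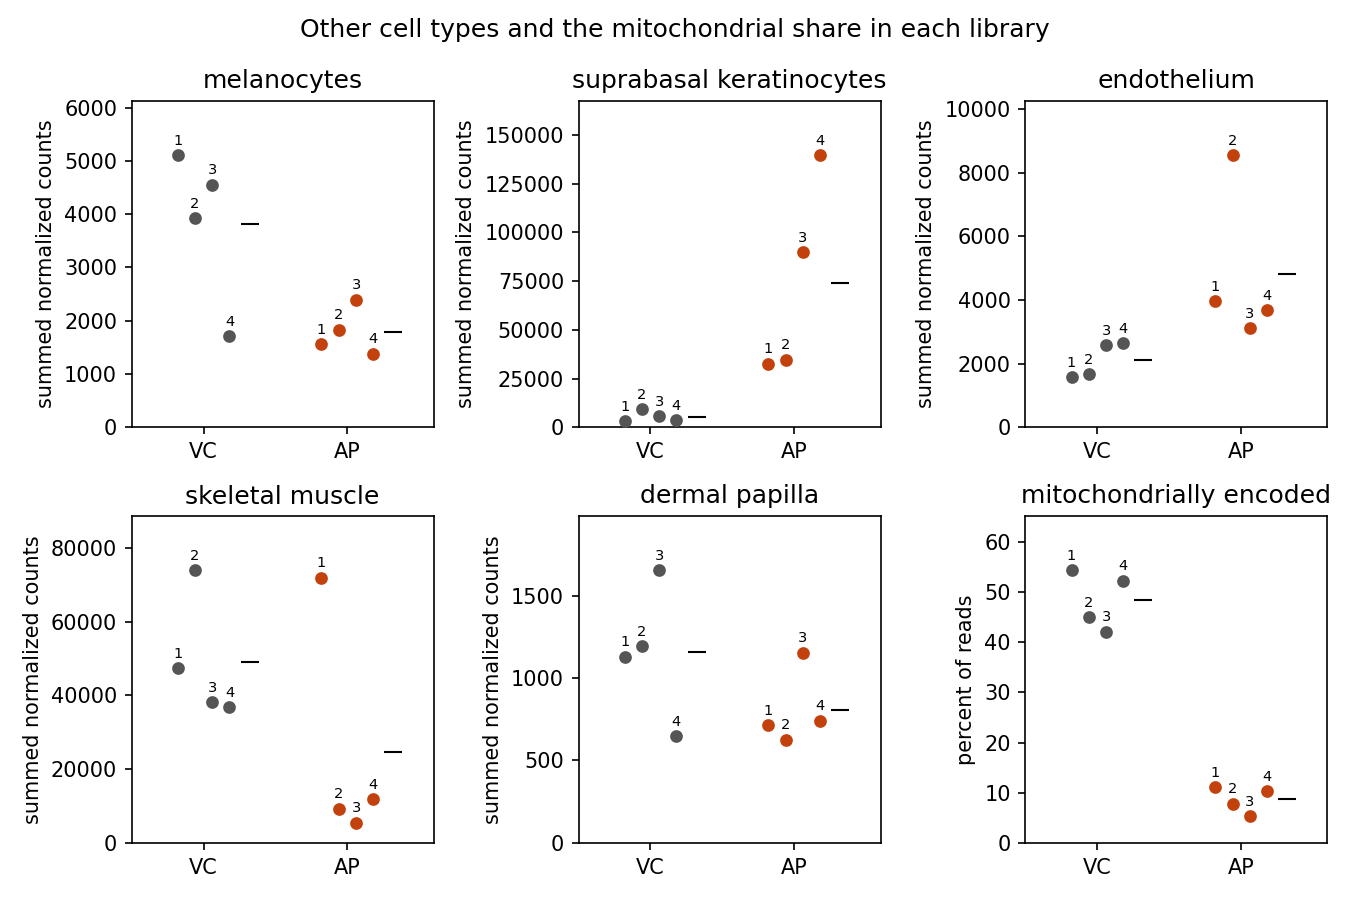
Summed normalized counts of the markers of 5 cell types and the percent of reads on mitochondrially encoded genes in each library, VC in grey and AP in orange, with the number of the library above each point and a dash for the group mean (n = 4). The suprabasal keratinocyte and endothelial sums are higher in each AP library than in any VC library, the mitochondrial share is lower, and the melanocyte, skeletal muscle and dermal papilla sums overlap.

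The promoters of the members were searched on both strands for ACAAAG and ACAATG, recognised by SOX factors, GCGTGGGCG and GCGGGGGCG, recognised by EGR factors, and TGACTCA with its reverse complement TGAGTCA, recognised by AP-1. Windows of 250 bases before to 50 after a transcript start, from RefSeq GRCm38.p6, were given for 4 members: Pmp22 (4 windows), Prx, S100b and Ngfr. No window held any of these letters, which were found in 18.7%, 12.6%, 0.612%, 2.91% and 5.20% of all 32851 windows. Mbp and Cdh19 had no window. The sequences before the start of S100b and Ngfr are shown because the ratio of these 2 genes differed most between the groups. Capitals mark each C followed by G. There were 2 such pairs in the 250 bases of S100b (chr10:76253586-76253835, plus strand, 53.6% G or C) and 16 in those of Ngfr (chr11:95587699-95587948, minus strand, 70.4% G or C), beside a median of 6 and 52.4% over all windows. This count was added after the data were seen.
S100b: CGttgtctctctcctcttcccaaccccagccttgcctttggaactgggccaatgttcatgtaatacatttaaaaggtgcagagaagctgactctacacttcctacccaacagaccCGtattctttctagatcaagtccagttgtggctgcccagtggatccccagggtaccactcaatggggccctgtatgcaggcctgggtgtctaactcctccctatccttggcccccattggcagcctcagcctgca
Ngfr: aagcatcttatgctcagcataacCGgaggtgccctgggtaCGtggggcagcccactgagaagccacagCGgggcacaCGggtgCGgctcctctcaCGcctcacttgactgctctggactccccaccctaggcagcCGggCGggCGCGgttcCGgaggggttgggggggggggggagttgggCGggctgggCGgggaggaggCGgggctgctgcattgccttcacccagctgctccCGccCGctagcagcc
In pairs of C followed by G, the S100b stretch was at the lower quartile of all windows (2) and the Ngfr stretch at the upper quartile (16). The stretch of Prx also held 2. Whether this bears on the levels of these genes was not tested.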

How the data were processed

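Bulk poly(A) RNA sequencing libraries of 4 AP and 4 VC skin samples were compared. The authors aligned reads with STAR to mm10 and counted them per gene (featureCounts in the methods, HTSeq in the submitters' processing notes; no versions given). The deposited signal is normalized counts, the reads of a library over its DESeq2 size factor. Other deposited columns (a mean, a log2 fold change, its standard error, a test statistic and p-values) hold the authors' own comparison and were not used. Dividing each column by its smallest step gave whole reads for 150160 of 150160 values (100%, tolerance 0.01). Symbols came from the table, and coordinates and lengths from GENCODE M21 (18766 of 18770 identifiers matched).

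The main test was limma 3.58.1 with an intensity trend in R 4.3.3 on log2(value + 1), with genes at 3 or more in at least 4 libraries, and Benjamini-Hochberg adjustment. Single values were compared by two-sided exact permutation. edgeR 4.0.16, limma-voom and DESeq2 1.42.0 were run on the recovered reads as alternatives. Named genes were the members, and of each list those called, up to 4 by size of change, then the most abundant, with the 2 nearest profiles per member. The members and lists were chosen with earlier results of these data known.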

Additional observations from a re-analysis of the deposited data

Results flagged for a closer look

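In each group of 4 libraries, a value was singled out when its distance to the nearest other library as a share of the group's whole range exceeded the critical value of Dixon's test for 4 values. Of 230 groups checked, over the named genes, the summed lists, the pair ratios and the library totals, 13 held such a value, and chance gives about 1 in 20. None of the 6 members had one among its own counts. Among pairs, the log2 ratio of Prx to S100b was 2.29 in AP.4 and 3.43 to 3.57 in the other AP libraries.

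In VC, Erbb3 was at 133 normalized counts in VC.4 (276 to 306 in the others), Sort1 at 223 in VC.2 (310.0 to 322), Ret at 80.0 in VC.1 (52.5 to 54.7) and Utrn at 543 in VC.3 (504 to 509). In AP.2, Dag1 was at 1712 (1229.5 to 1288 in the others), Pecam1 at 2244 (826 to 896), Cdh5 at 1373 (398 to 463), the summed laminin and dystroglycan genes at 6054 (4380.1 to 4538) and the summed Merkel cell markers at 163 (69.6 to 78.2). Of the remaining values, Mitf was at 83.0 in AP.4 (113 to 118 in the others), Cd74 at 7666 in AP.1 (4621 to 4947) and Mrps6 at 68.8 in AP.3 (121 to 127).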

How the results depend on the processing

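Across 21 alternative settings, S100b was called lower in 20, Mbp in 14, and Ngfr was called higher in 3. With total-count scaling, which moved all genes, Mbp was at -0.0413 (limma adjusted p = 0.898) and S100b at -0.86 (0.0617), neither called, Pmp22 at 1.27 (0.00229) and Ngfr at 1.87 (0.00280) were called, and Prx at 0.53 (0.116) and Cdh19 at 0.68 (0.208) changed sign. Without the intensity trend Mbp kept its -0.91 but not its call (0.0835), and DESeq2 called Ngfr (0.93, 0.0319). Leaving out 1 library gave -1.05 to -0.76 for Mbp, 0.76 to 1.25 for Ngfr and -0.54 to 0.06 for Cdh19, where omission of VC.3 gave 0.0580. Mitf was at 0.15 with total-count scaling. The cause of these shifts was not tested. Pairs of members without overlap numbered 9 with either other pseudocount and 9 to 11 with 1 library left out.

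Genes called higher in AP numbered 1011, and 376 for limma without the intensity trend, 8657 for total-count scaling, 580 for length trend removed, 1677 for DESeq2 on recovered reads and 1003 for edgeR on recovered reads. They were 209 without AP replicate 3, the lowest single omission, and 1082 without AP replicate 1, the highest. Genes called lower in AP numbered 639, and 216 for limma without the intensity trend, 70 for total-count scaling, 1362 for DESeq2 on recovered reads and 712 for edgeR on recovered reads. They were 94 without AP replicate 3 and 817 without AP replicate 1.

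Total-count scaling moved the median of nearly every list. Among other shifts, length trend removed gave 0.25 for laminin and dystroglycan genes, 0.48 for the neuregulin axis, 0.13 for fibroblasts and -0.19 for the node of Ranvier, and DESeq2 on recovered reads gave -0.51 for transcription factors, 0.07 for the GDNF family and -1.35 for melanocytes.

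The low reads of Ngfr and Cdh19 in VC, and of S100b in both groups, limit the size of difference that can be seen. No paired analysis was possible because the columns carry no number tied to a mouse.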
